A study of Mus musculus with 17 samples.

Results

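The second postnatal step of the mouse right ventricle (RV) was described by comparing the RV libraries of postnatal day 7 (P7) with those of day 3 (P3). The members were chosen by title: 3 RV P3 libraries and 2 RV P7 libraries, 5 of the 17 libraries of the series. All came from male C57Bl/6 mice, for which the labels give no treatment, and total RNA of the ventricle was sequenced as strand-specific read pairs. The labels call P3 a transition stage and P7 the stage at which most heart muscle cells (cardiomyocytes) are terminally differentiated. The other libraries used here were 3 each of the left ventricle (LV) at P3 and P7 and 3 of the RV at day 0 (P0). The labels give them the same strain, sex and protocol. The labels call the libraries of a group biological replicates and do not say how many animals gave each one. Levels are RPKM (reads scaled by transcript length and library size), given for each RefSeq messenger RNA entry. Of 20624 entries, the 10668 that reached 1 RPKM in 2 or more libraries were tested.

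After birth the lungs take over gas exchange and the ductus arteriosus closes, so the RV pumps against a falling resistance while the LV takes up the systemic load. In the same days cardiomyocytes replace fetal sarcomere proteins with adult ones, turn from glucose towards fatty acids as fuel, build mitochondria and leave the cell cycle, while endothelial cells and fibroblasts go on multiplying. The ventricular wall is a mixture of these cells, and in such bulk RNA fewer cells of a type and less RNA per cell cannot be told apart.

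The recovered sizes of the 5 libraries were 27561845 to 38964965 reads, of which 59.97% to 62.2% lay in the listed entries at P3 and 54.2% and 58.2% at P7. The ventricular light chain Myl2 stood at 10470 to 15760 RPKM and the Z-disc gene Actn2 at 611 to 688. Of the atrial markers, Sln was at most 0.0958 RPKM, whereas Myl7 and Nppa were present. The skeletal muscle marker Tnnt3 and the lung marker Sftpb were at 0, and the liver marker Alb and the brown fat marker Ucp1 were under 0.1 RPKM. Of other markers of these tissues, Cidea stood at 25.8 to 34.3 RPKM, Mylpf at 0.577 to 1.09 and Sftpc at 0 to 0.677. One entry without a gene name, NM_008710, stood at 9.19, 0.142 and 0.163 RPKM at P3 and at 7.26 and 0.205 at P7. It was thus high in replicate 1 of both ages and low in the other RV libraries of these ages. The LV libraries of P3 and P7 were split in the same way, with replicate 1 high. The labels do not say what sets replicate 1 apart, and its cause was not tested. Counts of calls without both replicate 1 RV libraries are given below. That fit leaves 1 library at P7, so it cannot separate this split from the loss of libraries. Below, an entry rose or fell only if it was called (adjusted p under 0.05, two-sided, limma with Benjamini-Hochberg adjustment over all tested entries). Changes are differences of log2(RPKM + 1), P7 minus P3, with the SE after ±, and the added 1 shrinks the change of entries near or under 1 RPKM. Several genes had more than 1 entry, and the value of 1 entry may leave out shared reads; a gene enters a count by its entry with the highest mean.

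Between P3 and P7 far more entries fell than rose in the RV on the deposited scale. Of 10668 entries 1842 (17.3%) were called, 1575 lower (14.8%) and 267 higher (2.5%), in 1826 genes. Beyond 2-fold 61 fell and 32 rose. The median change of all tested entries was -0.19, and the balance of directions depended on the scaling. After each library was divided by its upper quartile the median was -0.03, and 1190 entries (11.2%) were called, 637 higher (5.97%) and 553 lower (5.18%), so that the higher share of the calls went from 14.5% to 53.53%. The 267 higher calls and 553 of the lower ones were called the same way on both scales, 820 entries (7.69%), and 0 in opposite ways. The counts also rested on few libraries: without RV P7 replicate 1 the calls were 300 (109 higher, 191 lower), without RV P7 replicate 2 they were 1121, and without both replicate 1 libraries 211 (87 higher, 124 lower). Members of the 48 gene lists were called 176 times in all, and 68 times without RV P7 replicate 1. For each list below, the parentheses give first the counts after upper-quartile scaling and then, where leaving out an RV library moved either count strongly, the counts without that library.

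**Figure D1:**
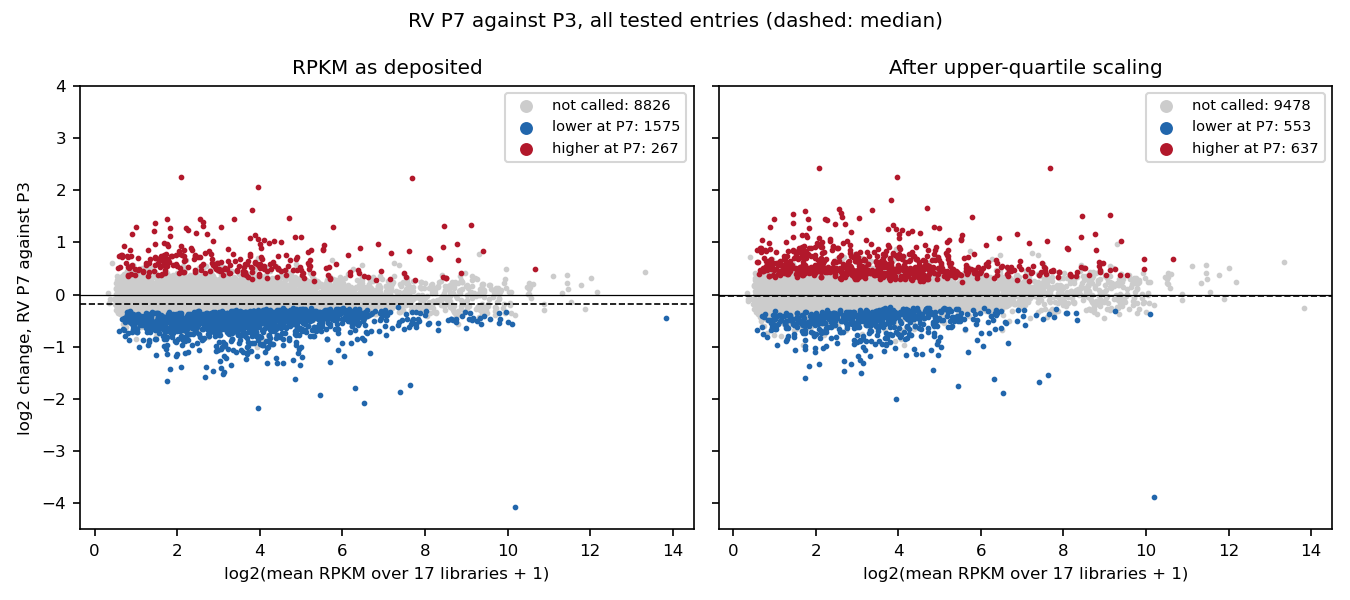
The log2 change of RV P7 against P3 (vertical axis) is plotted against the mean level over 17 libraries as log2(RPKM + 1) (horizontal axis), for the 10668 tested entries; red points were called higher and blue points lower, and the dashed line is the median. On the deposited scale 1575 lower and 267 higher calls surround a median of -0.19, and after upper-quartile scaling 553 lower and 637 higher calls surround a median of -0.03.

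The largest fall was that of Myh7, the slow beta-myosin heavy chain of the fetal ventricle (chromosome 14, 54970684 to 54994626 in GRCm38). Myh7 stood at 442, 168 and 239.7 RPKM at P3 and 14.8 and 14.4 at P7 (log2 change = -4.07 ± 0.40, adjusted p = 4.42e-06). Its mean was 19.4-fold lower. Both P7 libraries lay far below the lowest P3 library, and the P3 libraries differed among themselves by more than the P7 libraries did. Tnni1, slow skeletal troponin I and the fetal partner of cardiac troponin I, stood at 233, 187 and 219 RPKM at P3 and 54.7 and 71.8 at P7 (log2 change = -1.74 ± 0.17, adjusted p = 5.07e-06). Hey2, a Notch-responsive repressor of the compact ventricular wall, was at 46.2, 42.05 and 38.9 RPKM at P3 and 9.58 and 11.2 at P7 (log2 change = -1.93 ± 0.12, adjusted p = 1.85e-08). The complement component C3 was at 41.9, 26.3 and 47.7 RPKM at P3 and 7.67 and 7.47 at P7 (log2 change = -2.17 ± 0.32, adjusted p = 0.000265). Its level went up and then down: the P3 libraries stood above the P0 libraries (14.1, 6.99 and 9.05 RPKM). Plagl1, an imprinted zinc finger factor, was at 92.1, 90.3 and 96.5 RPKM at P3 and 25.2 and 26.7 at P7 (log2 change = -1.80 ± 0.16, adjusted p = 1.72e-06). By the rule that chose these genes their ages do not overlap, as was so for 58.1% of all tested entries.

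Of the 12 largest falls, 6 more were those of Myl7 (-1.86), Stbd1 (-1.62), S100a8 (-1.58), Angpt1 (-1.48), Prss35 (-1.46) and Tpsb2 (-1.41). Stbd1 anchors glycogen to membranes, Angpt1 is the Tie2 ligand that stabilizes vessels, S100a8 is a granulocyte protein, and Tpsb2 is a mast cell tryptase. Angpt1 stood at 15.6, 13.7 and 14.4 RPKM at P3 and 5.71 and 3.63 at P7, and both P7 libraries were lower. Of these 12 falls, the calls of Myl7 (adjusted p = 0.0516), S100a8 (0.148) and Prss35 (0.207) were lost without RV P7 replicate 1.

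Several genes of striated muscle were among the largest rises. Klhdc8a (chromosome 1, 132298490 to 132307357), a kelch-domain gene, stood at 0.8897, 0.901 and 1.04 RPKM at P3 and 8.93 and 7.58 at P7 (log2 change = 2.25 ± 0.15, adjusted p = 1.85e-08). The P7 mean was 8.75 times the P3 mean. Ckmt2, the creatine kinase of muscle mitochondria (chromosome 13, 91853386 to 91876923), was at 102, 81.01 and 98.9 RPKM at P3 and 434 and 456 at P7 (log2 change = 2.24 ± 0.32, adjusted p = 0.00016). Its P7 mean was 4.74 times the P3 mean. At P0 Ckmt2 was at 39.7, 113 and 79.8 RPKM, so P0 and P3 overlapped and the P7 libraries stood apart from both. Tuba8, an alpha-tubulin of muscle and testis, was at 8.87, 6.82 and 8.74 RPKM at P3 and 38.8 and 34.98 at P7 (log2 change = 2.06 ± 0.26, adjusted p = 6.23e-05). Trim72, which patches holes in the muscle membrane, was at 7.86, 11.6 and 8.71 RPKM at P3 and 30.4 and 30.6 at P7 (log2 change = 1.62 ± 0.26, adjusted p = 0.00049). The stretch-responsive repeat protein gene Ankrd23 was at 15.1, 10.3 and 13.8 RPKM at P3 and 30.6 and 45.4 at P7 (log2 change = 1.46 ± 0.24, adjusted p = 0.000655). Lrtm1 (1.45), Pi16 (1.45), Cbr2 (1.44), Tnfaip2 (1.39), Hba-a1 (1.34), Hba-a2 (1.31) and Art1 (1.31) made up the rest of the 12 largest rises. Art1 modifies membrane proteins of muscle with ADP-ribose, and Hba-a1 and Hba-a2 encode the adult alpha-globin of red cells; reads of these near-identical globin copies may have been split between them. In all 12 the lowest P7 library was above the highest P3 library, by the rule that chose them (58.1% of all tested entries did not overlap). The 12 rises and 9 of the 12 falls kept their calls in all 16 alternative settings.

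**Figure D2:**
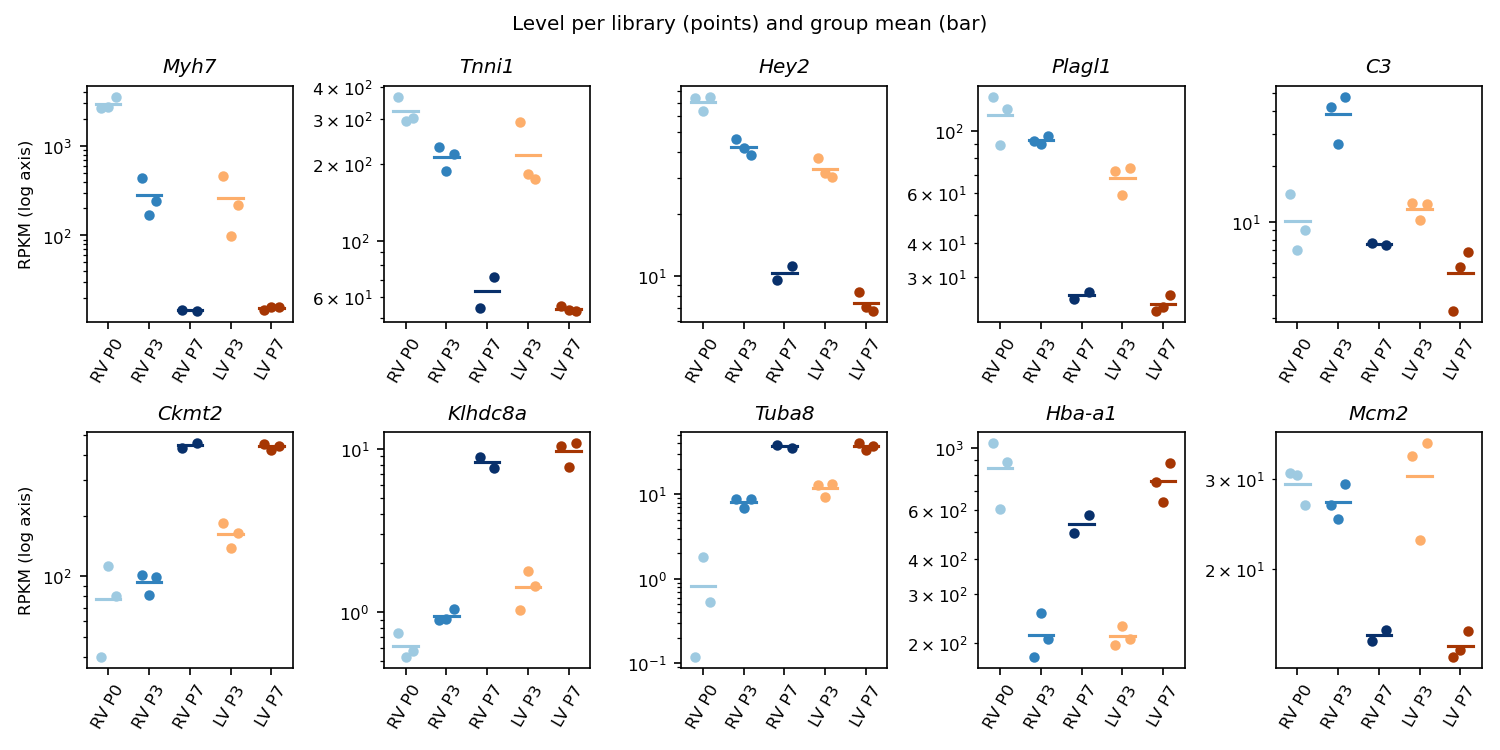
RPKM on log axes for 10 genes in each library (points) of RV P0, RV P3, RV P7, LV P3 and LV P7, with the group mean as a bar. In the RV, Myh7, Tnni1, Hey2 and Mcm2 were lower at P7 than at P3 in every library, Plagl1 was lower at P7 than at P3 as well, C3 was highest at P3, Ckmt2, Klhdc8a and Tuba8 were highest at P7, and Hba-a1 went down to P3 and up to P7.

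Among the fetal sarcomere and stress genes the slow and atrial isoforms fell and the natriuretic peptides did not pass. Of 14 tested of 16 listed genes 1 rose and 4 fell (1 and 3 when scaled; 0 and 3 without P3 replicate 1; 1 and 2 without P7 replicate 1; 0 and 5 without P7 replicate 2); the median was -0.25 (scaled -0.06). The falls were Myh7, Tnni1 and 2 atrial light chains. Myl7, the atrial regulatory light chain, stood at 102, 87.04 and 141 RPKM at P3 and 13.6 and 60.4 at P7, and RV P7 replicate 2 was well above replicate 1. Myl4, the atrial essential light chain, was at 4.999, 2.55 and 3.605 RPKM at P3 and 0.9397 and 1.88 at P7 (log2 change = -0.96 ± 0.30, adjusted p = 0.0362; not called after upper-quartile scaling or without RV P7 replicate 1). Acta1, skeletal alpha-actin, rose from a low level, 0.728, 0.9799 and 1.09 RPKM at P3 and 1.46 and 2.53 at P7 (log2 change = 0.61 ± 0.16, adjusted p = 0.0149; 1 of 2 entries). Nppa, atrial natriuretic peptide, was at 74.8, 43.9 and 60.1 RPKM at P3 and 41.6 and 116 at P7 (log2 change = 0.25, adjusted p = 0.578). Its neighbour Nppb was at 39.2, 23.3 and 23.9 RPKM at P3 and 33.1 and 53.6 at P7 (log2 change = 0.57, adjusted p = 0.165). For both peptides the ages overlapped, and RV P7 replicate 2 was the highest of the 5 libraries.

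Most adult contractile genes were not called. Of 21 tested of 23 listed genes 0 rose and 3 fell (3 and 0 when scaled; 1 and 1 without P3 replicate 2; 0 and 1 without P3 replicate 3 or P7 replicate 2; 1 and 0 without P7 replicate 1), and the median was 0.11 (scaled 0.29). Tnni3, cardiac troponin I, was at 2819, 2739 and 2990 RPKM at P3 and 3219 and 3379 at P7 (log2 change = 0.21, adjusted p = 0.263). Tcap, the titin cap, was at 107, 110.1 and 111 RPKM at P3 and 167 and 107 at P7 (log2 change = 0.28, adjusted p = 0.322), with replicate 1 of P7 above the P3 libraries and replicate 2 level with them. Myh6, the fast alpha-myosin heavy chain, was at 99.3, 76.4 and 79.4 RPKM at P3 and 72.9 and 67.1 at P7 for its higher entry (log2 change = -0.27, adjusted p = 0.53), which holds only part of the gene's reads. The 3 falls were Myl2, Synpo2l and the Tnnt2 entry NM_001130174 (-1.10), and none of them was called after upper-quartile scaling. Tnnt2 has 9 entries that share reads, and of the other tested ones none was called.

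In calcium handling the calcium binders Casq1 and S100a1 rose and the 1 tested entry of the pump inhibitor Pln fell. Casq1, the calsequestrin of fast skeletal muscle, was at 8.57, 6.602 and 9.31 RPKM at P3 and 16.6 and 20.4 at P7 (log2 change = 1.10 ± 0.19, adjusted p = 0.000927). S100a1, a calcium sensor of the cardiomyocyte, was at 487, 521 and 483 RPKM at P3 and 754 and 1040 at P7 (log2 change = 0.83 ± 0.16, adjusted p = 0.00277). Pln, phospholamban, restrains the sarcoplasmic calcium pump. The higher of its 2 entries was at 11.5, 14.4 and 11.3 RPKM at P3 and 7.28 and 7.99 at P7 (log2 change = -0.63 ± 0.13, adjusted p = 0.00348). Its other entry was at 0.109, 0.401 and 0.153 RPKM at P3 and 0.235 and 0.66 at P7 and was not tested. Of 15 tested of 22 listed genes 2 rose and 1 fell (4 and 1 when scaled; 2 and 0 without P7 replicate 1; 1 and 1 without P7 replicate 2), with a median of -0.04 (scaled 0.11). The pump Atp2a2 (-0.03), the release channel Ryr2 (-0.23) and the exchanger Slc8a1 (-0.12, 1 of 2 entries) were not called.

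More ion channel genes rose than fell. Of 22 tested of 27 listed genes 6 rose and 3 fell (10 and 3 when scaled; 2 and 2 without P7 replicate 1), against 2.5% of all entries that rose. Hcn2, a pacemaker channel that is also found in ventricular muscle, was at 3.25, 4.34 and 3.69 RPKM at P3 and 11.3 and 9.29 at P7 (log2 change = 1.25 ± 0.16, adjusted p = 6.2e-05). Kcnk3, a background potassium channel, was at 20.6, 23.9 and 19.5 RPKM at P3 and 37.6 and 36.1 at P7 (log2 change = 0.77 ± 0.14, adjusted p = 0.00151). Kcnd2 (0.52) and Kcnip2 (0.38, 1 of several entries), a pore and an auxiliary subunit of the transient outward current, rose as well. Kcnj5, part of the acetylcholine-gated potassium channel, was lower, at 30.3, 26.5 and 26.2 RPKM at P3 and 17.4 and 15.1 at P7 (log2 change = -0.73 ± 0.15, adjusted p = 0.00332). The other falls were Kcnq1 (-0.62), which carries the slow delayed rectifier current, and Hcn4 (-0.63), the pacemaker channel of the conduction system. The gap junction genes Gja1 (-0.27) and Gja5 (-0.35, under 1 RPKM) were not called. In adrenergic and natriuretic signalling, of 20 tested of 25 listed genes 2 rose and 1 fell (2 and 0 when scaled; 2 and 0 without P3 replicate 1; 1 and 2 without P3 replicate 2; 1 and 0 without P3 replicate 3 or P7 replicate 1; 1 and 1 without P7 replicate 2): the angiotensin-converting enzyme gene Ace (0.78, 1 of 2 entries) and the G protein regulator Rgs4 (0.47) rose, and the adenylyl cyclase Adcy6 (-0.40) fell.

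In energy supply Oxct1 of ketone use rose. On the deposited scale 5 of 25 glycolytic genes and 4 of 16 glycogen genes fell, beside 14.8% of all tested entries. Few genes of the core oxidation routes were called. Oxct1, the enzyme that activates ketone bodies for burning in the heart, was at 80.6, 60.2 and 86.4 RPKM at P3 and 120.5 and 142 at P7 (log2 change = 0.80 ± 0.15, adjusted p = 0.002). Acat1, the thiolase of the same route, was at 189, 189 and 202 RPKM at P3 and 231 and 237 at P7 (log2 change = 0.27 ± 0.08, adjusted p = 0.031; the call was lost without any 1 of the 5 libraries). In ketone metabolism, of 6 tested of 7 listed genes 2 rose and 1 fell (3 and 1 when scaled; 1 and 1 without any 1 of the 5 libraries). In the creatine kinase shuttle, of 11 tested of 13 listed genes 2 rose and 0 fell (4 and 0 when scaled; 1 and 0 without P3 replicate 3 or P7 replicate 1 or 2). These were Ckmt2 and the oxygen store Mb, at 453, 469.6 and 437 RPKM at P3 and 633 and 805 at P7 (log2 change = 0.65 ± 0.18, adjusted p = 0.019; 1 of several entries). In fatty acid oxidation, of 35 tested of 36 listed genes 1 rose and 2 fell (4 and 1 when scaled; 0 and 1 without P3 replicate 1 or P7 replicate 2; 1 and 1 without P3 replicate 2 or P7 replicate 1; 0 and 2 without P3 replicate 3), with a median of -0.05 (scaled 0.14). In the first step, P3 against P0, 25 of the same 35 rose and 1 fell (9.72% of all entries rose in that step), with a median of 0.92; the RV P3 libraries are shared between the steps. Pdk4, which blocks the entry of pyruvate into oxidation, was at 60.5, 73.98 and 73.9 RPKM at P3 and 86.3 and 127 at P7 (log2 change = 0.59 ± 0.18, adjusted p = 0.0293; lost without RV P7 replicate 2). The falls were Acot1, a cytosolic acyl-CoA thioesterase with close paralogs, at 54.1, 60.6 and 53.4 RPKM at P3 and 20.3 and 22.5 at P7 (log2 change = -1.35 ± 0.23, adjusted p = 0.00111), and Cpt1a, the liver-type carnitine palmitoyltransferase. Cpt1a was at 44.3, 42.98 and 42.1 RPKM at P3 and 30.2 and 32.3 at P7 (log2 change = -0.45; not called after upper-quartile scaling). The uncoupling protein gene Ucp3, which had risen by 4.54 in the first step, was at 20.1, 33.4 and 27.1 RPKM at P3 and 28.4 and 32.1 at P7 (log2 change = 0.19, adjusted p = 0.473).

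Of 29 tested of 29 listed respiratory chain genes 2 rose and 0 fell (5 and 0 when scaled; 0 and 0 without P3 replicate 1 or 3 or P7 replicate 1; 1 and 0 without P3 replicate 2 or P7 replicate 2), and of 20 tested of 21 listed genes of the citric acid cycle 1 rose and 1 fell (6 and 0 when scaled; 0 and 1 without P3 replicate 1 or 2 or P7 replicate 2; 0 and 0 without P3 replicate 3 or P7 replicate 1). The respiratory rises were Uqcrc1 (0.42), a core subunit of complex III, and Atp5g1 (0.33), of the ATP synthase ring. Both lists had medians near 0 on the deposited scale, 0.09 and 0.13, and above it after upper-quartile scaling, 0.28 and 0.32. Of 14 tested of 21 listed regulators of mitochondria 1 rose and 1 fell (3 and 0 when scaled; 1 and 0 without P3 replicate 1 or 3 or P7 replicate 1 or 2). The retinoid receptor Rxrg was at 0.394, 0.2997 and 0.213 RPKM at P3 and 1.22 and 1.12 at P7 (log2 change = 0.74 ± 0.13, adjusted p = 0.00155). The kinase subunit Prkaa2 fell (-0.45). The coactivator Ppargc1a, at 1.09, 0.904 and 0.971 RPKM at P3 and 1.02 and 1.41 at P7, did not pass (log2 change = 0.15, adjusted p = 0.391). Of 25 tested of 26 listed glycolytic genes 1 rose and 5 fell (4 and 2 when scaled; 1 and 3 without P3 replicate 2; 1 and 2 without P3 replicate 3; 0 and 2 without P7 replicate 1; 0 and 4 without P7 replicate 2). The falls were Aldoc (-0.99), Slc2a1 (-0.87), Ldha (-0.73), Pfkfb1 (-0.52) and Pdk1 (-0.33). Slc2a1, the insulin-independent glucose carrier, was at 8.74, 8.91 and 9.896 RPKM at P3 and 3.98 and 5.195 at P7. Gapdh rose (0.48). In glycogen metabolism, of 16 tested of 17 listed genes 0 rose and 4 fell (1 and 2 when scaled; 1 and 2 without P3 replicate 1; 0 and 2 without P3 replicate 3 or P7 replicate 1 or 2), among them the liver-type phosphorylase Pygl (-0.93), the primer Gyg (-0.62) and the phosphatase subunit Ppp1r3d (-0.41). Stbd1, named above, was at 28.3, 32.9 and 36.5 RPKM at P3 and 8.29 and 11.8 at P7.

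Transcription factors of the developing heart, listed together with the growth factor Bmp10, fell or were not called, and on the deposited scale none rose. Bmp10 also counts in the atrial list below. Of 25 tested of 30 listed genes 0 rose and 9 fell (2 and 8 when scaled), and 8 fell without either RV P7 library in turn. The background share of entries that fell was 14.8%, or 5.18% after upper-quartile scaling. Beside Hey2, Hand2, a basic helix-loop-helix factor of the RV and outflow tract, was at 44.5, 55.9 and 46.1 RPKM at P3 and 26.6 and 28.6 at P7 (log2 change = -0.80 ± 0.12, adjusted p = 0.000309). Irx4, the ventricle-restricted Iroquois factor, was at 33.6, 37.8 and 31.2 RPKM at P3 and 20.7 and 18.2 at P7 (log2 change = -0.78 ± 0.12, adjusted p = 0.00038). Gata6 was at 62.00, 66.5 and 61.4 RPKM at P3 and 38.8 and 35.9 at P7 (log2 change = -0.75 ± 0.10, adjusted p = 8.82e-05), and Tbx20 (-0.63), Zfpm2 (-0.62) and Nkx2-5 (-0.47) fell too, Nkx2-5 on the deposited scale alone. Bmp10, the trabecular growth factor kept in the atria of adults, was at 2.07, 1.32 and 2.83 RPKM at P3 and 0 and 0.102 at P7 (log2 change = -1.52 ± 0.26, adjusted p = 0.000927). The coactivator Cited1 was at 5.195, 3.85 and 2.52 RPKM at P3 and 1.04 and 0.889 at P7 for its highest entry (log2 change = -1.27 ± 0.23, adjusted p = 0.00133). Tbx5 (-0.34), Gata4 (-0.16), Mef2c (0.02) and Nr2f2 (-0.18) were not called on either scale.

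Several genes of fetal growth fell. Of 11 tested of 18 listed imprinted genes 0 rose and 5 fell (1 and 4 when scaled; 0 and 2 without P7 replicate 1): Plagl1, Igf2r, Igf2, Peg3 and Grb10. Igf2, the fetal insulin-like growth factor, was at 14.9, 25.9 and 19.7 RPKM at P3 and 7.53 and 12.5 at P7 for its highest entry (log2 change = -0.95 ± 0.25, adjusted p = 0.0177; adjusted p = 0.055 after upper-quartile scaling), and its other entries NM_001122736 (-0.74) and NM_010514 (-0.84) fell too. Igf2r, the receptor that clears Igf2, was at 88.00, 91.8 and 88.1 RPKM at P3 and 33.99 and 48.3 at P7 (log2 change = -1.12 ± 0.21, adjusted p = 0.0018). Of the 19 tested of 24 listed growth-signal genes 1 rose and 6 fell (1 and 3 when scaled; 1 and 3 without P3 replicate 2; 0 and 0 without P7 replicate 1). The neuregulin co-receptor Erbb2 (-0.74) and the G1 kinase Cdk4 (-0.60) fell on both scales, Ccnd3 (-0.89) and Igfbp5 (-0.88) on the deposited scale alone, and Fgf16 rose (0.74). Among 16 tested of 21 listed inhibitors of the cell cycle and Meis factors 2 rose and 3 fell (2 and 2 when scaled; 2 and 1 without P3 replicate 3 or P7 replicate 2; 1 and 0 without P7 replicate 1). Gadd45a was at 2.81, 3.82 and 3.75 RPKM at P3 and 7.14 and 7.35 at P7 (log2 change = 0.89 ± 0.18, adjusted p = 0.00344) and Ccng1 rose (0.41). Gadd45b (-0.79), Rbl1 (-0.57) and Rbl2 (-0.35) fell. The inhibitor Cdkn1a stood at 0.591, 0.779 and 0.786 RPKM at P3 and 0.811 and 0.757 at P7 for its higher entry and Meis1 at 2.23, 1.71 and 1.83 RPKM at P3 and 1.67 and 1.401 at P7, neither called.

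In the RV 16 of 28 genes of DNA replication fell, and 1 of 29 genes of mitosis did (5 without RV P3 replicate 2). Among all tested entries the share that fell was 14.8%, or 5.18% after upper-quartile scaling. DNA replication in S phase and chromosome segregation in M phase are run by separate gene sets, the former driven largely by E2F factors and the latter by the MuvB complex with B-Myb and FoxM1. Of 28 tested of 31 listed replication genes 0 rose and 16 fell (0 and 12 when scaled; 0 and 8 without P7 replicate 1), with a median of -0.52 (scaled -0.38). Without RV P7 replicate 2, 12 of them fell. Prim1, the small primase subunit, was at 14.2, 16.1 and 17.8 RPKM at P3 and 7.88 and 8.49 at P7 (log2 change = -0.89 ± 0.14, adjusted p = 0.000487). Mcm2 and Mcm7 are subunits of the replicative helicase. Mcm2 was at 26.7, 25.1 and 29.3 RPKM at P3 and 14.4 and 15.2 at P7 (log2 change = -0.83 ± 0.14, adjusted p = 0.00105). Mcm7 was at 35.3, 31.1 and 40.2 RPKM at P3 and 19.6 and 20.02 at P7 (log2 change = -0.81 ± 0.15, adjusted p = 0.00165). Rfc3, of the clamp loader, was at 14.7, 15.1 and 15.4 RPKM at P3 and 8.04 and 8.399 at P7 (log2 change = -0.80 ± 0.12, adjusted p = 0.000305). Mcm4 (-0.77), Pole2 (-0.73), Gins1 (-0.70), Mcm6 (-0.70), Rrm1 (-0.69), Mcm3 (-0.63), Mcm5 (-0.62) and Pola1 (-0.62) fell on both scales as well. The P3 and P7 libraries overlapped in 2 of the 28, and in the other 26 P7 was the lower age (58.1% of all tested entries did not overlap).

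Of 29 tested of 33 listed mitosis genes 0 rose and 1 fell (1 and 0 when scaled; 0 and 0 without P3 replicate 1 or 3 or P7 replicate 1; 0 and 5 without P3 replicate 2), and the median was -0.14 (scaled -0.01). Without RV P3 replicate 2, the P3 library with the lowest mitosis sum, the median was -0.31. The fall was that of Incenp (-0.41, adjusted p = 0.0467), a subunit of the chromosomal passenger complex, and the rise after scaling was Ube2c, which drives the destruction of cyclins. Ccnb1, cyclin B1, stood at 21.4, 17.7 and 30.6 RPKM at P3 and 21.3 and 23.5 at P7 (log2 change = -0.02, adjusted p = 0.953). Ube2c was at 50.2, 39.9 and 62.8 RPKM at P3 and 60.8 and 61.5 at P7 (log2 change = 0.28, adjusted p = 0.195). Mki67, the proliferation marker, was at 24.9, 25.1 and 32.7 RPKM at P3 and 26.4 and 25.2 at P7 (log2 change = -0.08, adjusted p = 0.71). Cdk1, the mitotic kinase, was at 18.2, 16.4 and 25.3 RPKM at P3 and 12.9 and 14.6 at P7 (log2 change = -0.49, adjusted p = 0.0529). The ages overlapped in 22 of the 29 genes, and in the other 7 P7 was lower. The changes of the 29 genes ranged from -0.49 to 0.28, and those of the 28 replication genes from -0.89 to -0.15.

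The promoters of genes of both groups are shown because the groups differ in the letters near their starts. Whether these letters bear on the changes was not tested. The windows are 300 bases long and start upstream of, and end just past, the RefSeq start (GRCm38.p6), read 5′ to 3′ along the gene. They are Ube2c (chr2:164769679-164769978, plus strand), Hmmr (chr11:40733388-40733687, minus strand), Prim1 (chr10:128014965-128015264, plus strand) and Mcm6 (chr1:128359656-128359955, minus strand). In the first pair, both mitotic, capitals mark TTTGAA or TTTAAA (the cell cycle homology region) and CCAAT on either strand; in the second pair, both of replication, they mark TTCCCGC or TTGGCGC (E2F-type) on either strand.
Ube2c: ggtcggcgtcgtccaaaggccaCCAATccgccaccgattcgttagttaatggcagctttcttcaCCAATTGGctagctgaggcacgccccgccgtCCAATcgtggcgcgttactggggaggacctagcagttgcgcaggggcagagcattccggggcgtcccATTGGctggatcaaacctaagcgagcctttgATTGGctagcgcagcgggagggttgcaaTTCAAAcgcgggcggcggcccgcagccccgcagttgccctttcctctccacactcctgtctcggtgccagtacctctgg
Hmmr: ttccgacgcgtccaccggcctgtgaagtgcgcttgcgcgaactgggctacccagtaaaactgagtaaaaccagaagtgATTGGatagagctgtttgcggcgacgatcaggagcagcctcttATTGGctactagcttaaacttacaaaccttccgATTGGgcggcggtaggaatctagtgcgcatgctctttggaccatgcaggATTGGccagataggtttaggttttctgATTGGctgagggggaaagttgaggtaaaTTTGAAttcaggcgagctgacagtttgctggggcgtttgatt
Prim1: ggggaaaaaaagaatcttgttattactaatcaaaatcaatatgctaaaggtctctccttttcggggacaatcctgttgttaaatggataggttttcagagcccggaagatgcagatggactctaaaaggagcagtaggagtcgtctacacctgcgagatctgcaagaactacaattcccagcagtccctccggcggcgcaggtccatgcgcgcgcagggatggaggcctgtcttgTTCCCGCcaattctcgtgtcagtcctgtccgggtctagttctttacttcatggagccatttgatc
Mcm6: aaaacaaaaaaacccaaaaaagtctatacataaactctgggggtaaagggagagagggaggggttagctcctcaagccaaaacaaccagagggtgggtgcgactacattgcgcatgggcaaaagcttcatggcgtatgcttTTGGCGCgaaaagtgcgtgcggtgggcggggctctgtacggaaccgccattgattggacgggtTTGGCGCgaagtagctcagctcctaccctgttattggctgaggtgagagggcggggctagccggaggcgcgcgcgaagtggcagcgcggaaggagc

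TTTGAA on either strand was found in 23 of 29 promoters of the mitosis list (79.3%), in 3 of 31 of the replication list (9.68%) and in 17.9% of all 32851 promoters of the table. TTTAAA was found in 8 of the 29 (27.6%), in 5 of the 31 (16.1%) and in 13.2% of all. CCAAT was found in 24 of the 29 (82.8%), in 17 of the 31 (54.8%) and in 37.4% of all. TTCCCGC or TTGGCGC was found in 5 of the 29 (17.2%), in 16 of the 31 (51.6%) and in 6.81% of all, and in 10 of the 11 promoters of replication genes that fell on both scales (90.9%). CCAAT was also in 10 of those 11. The 11 belong to 10 genes that were chosen by their fall in these data, so neither share is a test. In the Prim1 window the E2F-type match shares a base with a CCAAT, and each was counted. The table held 27 of the 33 listed mitosis genes and 25 of the 31 replication genes, some with more than 1 start. These are matches of letters, not measured binding.

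Set beside the LV, the RV mitosis genes at P3 stood around the level that both chambers had at P7. Their summed level in the RV was 1124, 874 and 899.5 RPKM at P0, 434, 359 and 573 at P3 and 405 and 407 at P7. In the LV it was 725, 525 and 820.5 RPKM at P3 and 397, 408 and 422 at P7. The RV P7 sums lay inside the range of the RV P3 sums, and the LV P3 sums lay above every P7 sum of both chambers. In the LV 27 of the 29 fell, with a median of -0.71; 27.9% of all entries fell there. The summed replication genes stood at 469.7, 448 and 543 RPKM in RV P3 and 324 and 316 in RV P7. In the LV they stood at 656, 494 and 666 at P3 and 316, 307 and 324 at P7, so they were lower at P7 in both chambers. LV and RV libraries of 1 age and number deviated together from their group means (correlation 0.269 to 0.587 in 8 of 8 pairs), so the chambers were also compared within pairs. The median RV minus LV difference over the 29 mitosis genes was -0.67, -0.45 and -0.46 (log2) in the P3 pairs and 0.04 and -0.01 in the P7 pairs.

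**Figure D3:**
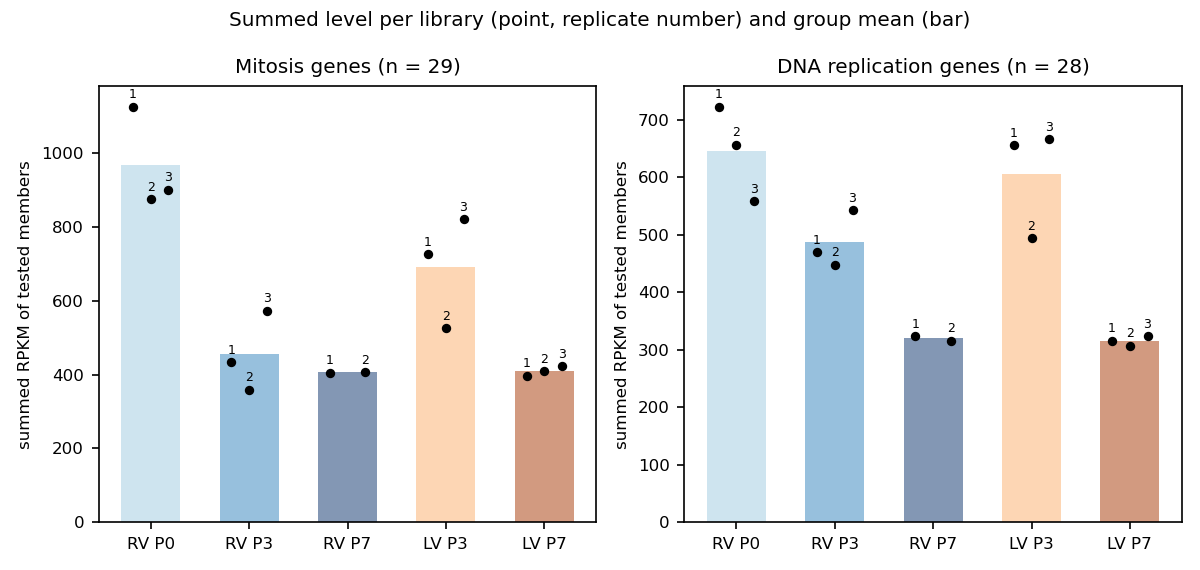
Summed RPKM of the 29 tested mitosis genes (left) and the 28 tested replication genes (right) in each library (points, with the replicate number) and as a group mean (bars, from 0). The mitosis sums of RV P7, 405 and 407, lie between the lowest and highest RV P3 sums of 359 and 573, while the replication sums of RV P7, 324 and 316, lie below the lowest RV P3 sum of 448.

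Whether the RV step differed from the LV step was tested on the difference of the 2 changes. Without pairing, no entry of 10668 was called (0%; the smallest adjusted p was 0.984 with limma, voom on recovered reads called 0, and 519 entries had an unadjusted p under 0.05). With LV and RV paired by age and number, which leaves out the unpaired LV P7 replicate 3, 27 were called (0.253%), 22 higher in the RV (0.206%) and 5 lower (0.0469%), and 53 after upper-quartile scaling (0.497%). The mitosis list held 6 of the 22 (12 after scaling), and all 29 of its members had a positive difference, with a median of 0.54. Over all tested entries the median difference was -0.0036. Other lists leaned the same way: 20 of 20 citric acid cycle genes (median 0.26), 27 of 28 replication genes (0.26) and 33 of 35 fatty acid oxidation genes (0.17) were positive. Of 11 macrophage genes 0 were (-0.30). Members of a list share the same libraries and are not independent. For Hmmr, a spindle protein, RV minus LV was -0.82, -0.94 and -0.67 at P3 and 0.26 and -0.10 at P7 (difference of the steps 0.89 ± 0.14, adjusted p = 0.0222 in the paired fit). For Ccnb1 it was -0.80, -0.49 and -0.51 at P3 and 0.26 and 0.15 at P7 (0.81 ± 0.14, adjusted p = 0.0298). Of the 27, Casq1 had the largest difference, 0.9997 ± 0.17 (adjusted p = 0.0298): in the LV it was at 15.1, 10.3 and 13.5 RPKM at P3 and 16.2, 11.7 and 12.9 at P7. Aqp4, a water channel, was at 13.6, 11.1 and 15.3 RPKM at P3 and 16.3 and 12.3 at P7 in the RV. In the LV it was at 14.3, 10.1 and 12.3 RPKM at P3 and 8.06, 5.05 and 5.18 at P7 (0.92 ± 0.15). Myl9, a smooth muscle light chain, was at 332, 242 and 328 RPKM at P3 and 221 and 318 at P7 in the RV. In the LV it was at 393, 278 and 333 RPKM at P3 and 149.8, 200.3 and 223 at P7 (0.76 ± 0.14). On the lower side, Tgfbi, a matrix protein, was at 12.6, 20.6 and 17.5 RPKM at P3 and 7.11 and 9.74 at P7 in the RV. In the LV it was at 8.48, 9.68 and 9.66 RPKM at P3 and 7.56, 9.29 and 9.07 at P7 (-0.79 ± 0.15), so the chambers were apart at P3 and overlapped at P7. The paired calls rested on few pairs: without the P3 pair of replicate 2, 0 were called. Without either P7 pair, which leaves 1 pair at P7, nearly all of these calls were lost. All 27 kept their direction in every alternative. They had been chosen by the paired fit and the alternatives share most of its libraries, so this is not independent support.

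**Figure D4:**
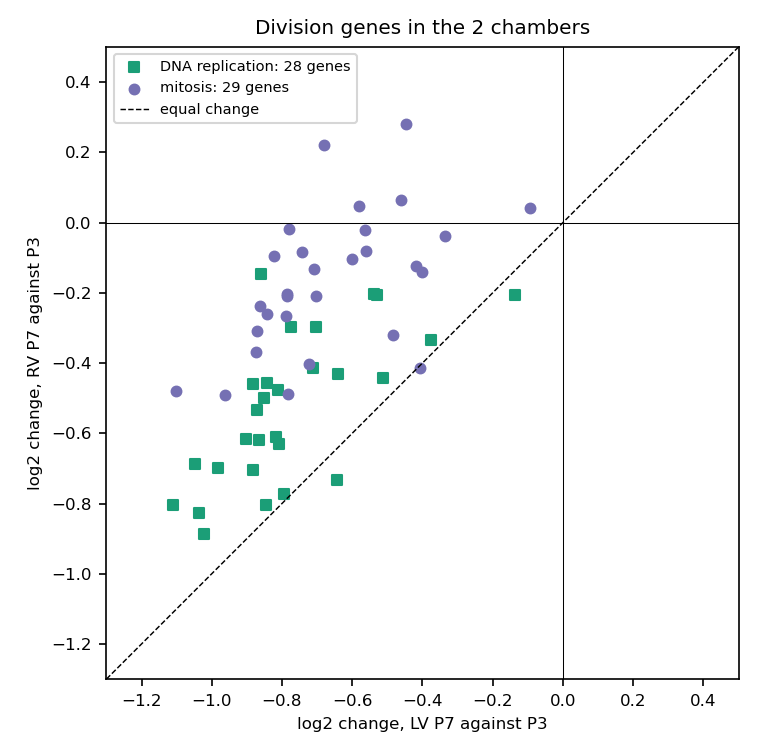
The log2 change of P7 against P3 in the RV (vertical axis) against that in the LV (horizontal axis) for 28 replication genes (green squares) and 29 mitosis genes (purple circles); the dashed line marks equal change. The mitosis genes lie between -0.49 and 0.28 in the RV and between -1.10 and -0.09 in the LV, and 28 of the 29 mitosis genes and 26 of the 28 replication genes lie above the line.

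Across all tested entries Pearson's r between the RV and LV changes was 0.774 and Spearman's rho 0.701 over 10668 entries, which are not independent. The same sign in the LV was found for 1811 of the 1842 RV calls (98.3%). This share was not computed over all tested entries. Among the RV calls 85.5% were lower, and the median of all entries was negative in both chambers (-0.19 in the RV, -0.17 in the LV). LV and RV libraries of 1 age and number also deviated together (correlation 0.269 to 0.587), which can raise both r and this share. The LV, with 3 libraries at P7, had 3674 calls (34.4%). Among the largest RV changes, the LV changes were -3.71 for Myh7, -2.03 for Hey2 and 2.13 for Klhdc8a. C3 (-2.17 in the RV, -1.07 in the LV) and Ckmt2 (2.24 and 1.45) differed by more, though neither difference was called (adjusted p = 0.0578 and 0.071 in the paired limma fit).

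On the deposited scale genes of biosynthesis were called lower more often than higher, as were all tested entries together. Part of these calls depended on the scaling. Of all entries 14.8% fell and 2.5% rose, or 5.18% and 5.97% after upper-quartile scaling. Of 19 tested of 21 listed genes of cholesterol synthesis 0 rose and 10 fell (0 and 3 when scaled; 0 and 5 without P3 replicate 1 or 3 or P7 replicate 2; 0 and 2 without P7 replicate 1), with a median of -0.47 (scaled -0.28). Idi1, the isomerase of the isoprenoid route, was at 11.97, 13.1 and 13.02 RPKM at P3 and 6.495 and 6.35 at P7 (log2 change = -0.88 ± 0.19, adjusted p = 0.00487). The regulator Srebf2 fell on both scales (-0.56). Of 19 tested of 20 listed genes of folding in the endoplasmic reticulum 0 rose and 7 fell (0 and 5 when scaled; 0 and 1 without P7 replicate 1). The disulfide isomerases Pdia4 (-0.68), Pdia6 (-0.60) and Pdia3 (-0.49), the calcium-binding chaperone Calr (-0.56) and the co-chaperone Dnajb11 (-0.59) fell on both scales, and Pdia4 was at 50.9, 43.5 and 45.3 RPKM at P3 and 27.1 and 30.4 at P7. Of 22 tested of 22 listed ribosomal protein genes 0 rose and 9 fell (0 and 2 when scaled; 0 and 1 without P7 replicate 1). Rps19 was at 188, 198 and 166 RPKM at P3 and 104 and 127 at P7 (log2 change = -0.67 ± 0.17, adjusted p = 0.0115) and Rpl13 at 596, 601 and 561 RPKM at P3 and 408 and 411 at P7 (log2 change = -0.51 ± 0.10, adjusted p = 0.00361). These genes have many processed copies, which makes their values uncertain. Of 12 tested of 16 listed splicing factors 0 rose and 4 fell (0 and 1 when scaled; 0 and 1 without P3 replicate 1 or 3; 0 and 0 without P7 replicate 1; 0 and 2 without P7 replicate 2), among them Hnrnpu (-0.49) and the titin splicing regulator Rbm20 (-0.41). Of 16 tested of 18 listed heat shock genes 2 rose and 5 fell (4 and 2 when scaled; 2 and 2 without P3 replicate 1; 2 and 3 without P3 replicate 2; 2 and 0 without P7 replicate 1). Small heat shock genes moved both ways, as Hspb8 and Hspb6 rose and Hspb1 fell. Hspb8 was at 38.2, 34.6 and 38.02 RPKM at P3 and 97.6 and 86.5 at P7 (log2 change = 1.29 ± 0.11, adjusted p = 4.7e-07). Hspb6 was at 262, 255 and 247 RPKM at P3 and 446 and 384 at P7 (log2 change = 0.70 ± 0.13, adjusted p = 0.00141), while Hsp90aa1 (-0.56) and Hspb1 (-0.47) fell on both scales. In autophagy and proteolysis, of 21 tested of 22 listed genes 1 rose and 2 fell (2 and 1 when scaled; 2 and 1 without P3 replicate 2; 1 and 1 without P3 replicate 3 or P7 replicate 1 or 2). The sarcomere-bound ubiquitin ligases went apart: Trim54 was at 3.001, 3.703 and 2.68 RPKM at P3 and 7.84 and 8.82 at P7 (log2 change = 1.18 ± 0.15, adjusted p = 6.83e-05), whereas Trim55 was at 94.6, 91.6 and 94.97 RPKM at P3 and 48.9 and 64.3 at P7 (log2 change = -0.73 ± 0.11, adjusted p = 0.000298).

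**Figure D5:**
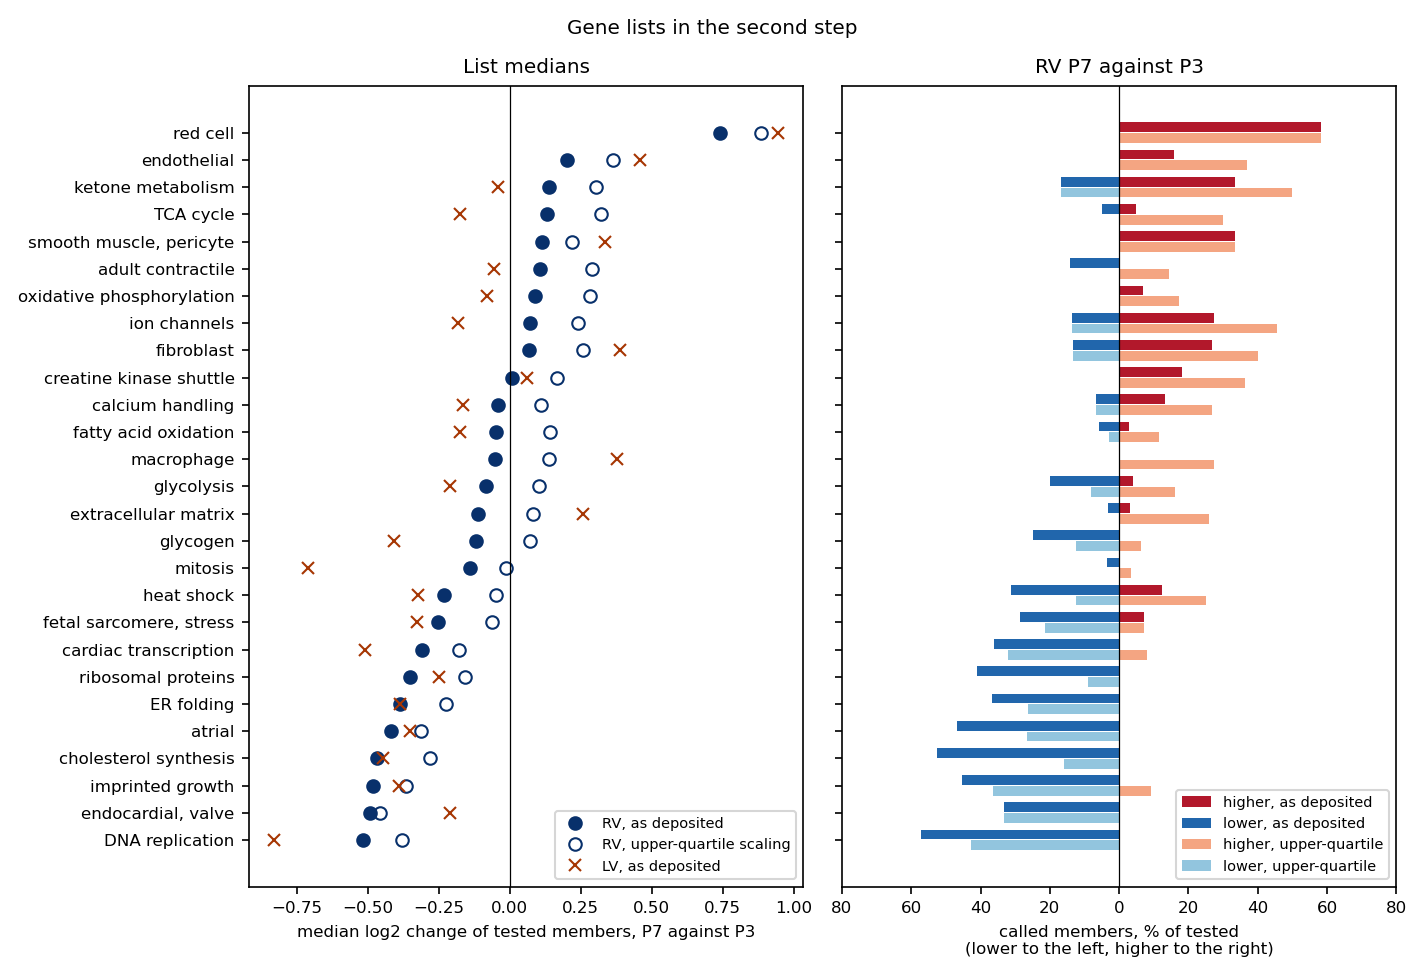
For 27 gene lists, the left panel gives the median log2 change of the tested members in the RV on the deposited scale (filled circles) and after upper-quartile scaling (open circles) and in the LV (crosses), and the right panel the share of tested members called lower (left) or higher (right) in the RV on both scales. The red cell list has the highest RV median, 0.74, and the replication list the lowest, -0.52; the mitosis list stands at -0.14 in the RV and -0.71 in the LV.

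Markers of the vessel wall and of fibroblasts rose in part, beside 2.5% of all tested entries, or 5.97% after upper-quartile scaling. Vtn is in both the pericyte and the fibroblast list and counts in each. Of 19 tested of 20 listed endothelial genes 3 rose and 0 fell (7 and 0 when scaled; 1 and 0 without P3 replicate 3). Cdh5, the endothelial cadherin, was at 104, 111 and 97.5 RPKM at P3 and 146 and 138 at P7 (log2 change = 0.44 ± 0.12, adjusted p = 0.0149). Gpihbp1, the capillary anchor of lipoprotein lipase, was at 76.96, 74.1 and 69.3 RPKM at P3 and 91.9 and 113 at P7 (log2 change = 0.47 ± 0.14, adjusted p = 0.0289), and the apelin gene Apln rose (0.64). Of 9 tested of 12 listed smooth muscle and pericyte genes 3 rose and 0 fell (3 and 0 when scaled; 3 and 1 without P3 replicate 2; 3 and 2 without P7 replicate 2). These were the pericyte genes Rgs5, at 99.3, 97.8 and 89.7 RPKM at P3 and 199 and 179 at P7 (log2 change = 0.97 ± 0.12, adjusted p = 5.03e-05), Kcnj8 (0.59) and Vtn (1.17). Of 15 tested of 16 listed fibroblast genes 4 rose and 2 fell (6 and 2 when scaled; 4 and 1 without P7 replicate 1). Pi16 was at 4.39, 7.89 and 5.297 RPKM at P3 and 12.4 and 23.8 at P7 (log2 change = 1.45 ± 0.22, adjusted p = 0.00041), and Vtn (1.17), Mfap4 (0.90) and Mfap5 (0.87) rose with it, while Wif1 (-0.90) and the Gsn entry NM_001206367 (-0.99) fell. The other tested Gsn entry, NM_146120, was not called (0.24). The summed fibroblast markers overlapped between the ages, at 1621, 1272 and 1573 RPKM at P3 and 1528 and 1809 at P7, while the summed endothelial markers were at 1476, 1468 and 1375 RPKM at P3 and 1647 and 2176 at P7, both P7 libraries above all at P3. Of 31 tested of 33 listed matrix genes 1 rose and 1 fell (8 and 0 when scaled; 2 and 0 without P3 replicate 1; 1 and 0 without P3 replicate 3 or P7 replicate 1). Col15a1, a basement membrane collagen, was at 44.3, 34.95 and 31.2 RPKM at P3 and 73.5 and 68.8 at P7 (log2 change = 0.95 ± 0.16, adjusted p = 0.000724), and Fbn2, the fetal fibrillin, fell (-0.78; not called after upper-quartile scaling). Col1a1 (0.06) and Col3a1 (0.05) were not called. In the LV the matrix list had a median of 0.26, against -0.11 in the RV, with 11 members called higher (6.56% of all entries were) and 2 lower. In the paired test of the difference 0 members were called higher and 0 lower in the RV.

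The endocardial and valve markers that passed the test were lower. Of 9 tested of 11 listed genes 0 rose and 3 fell (0 and 3 when scaled). Plvap, of fenestrated and endocardial endothelium, was at 29.2, 43.6 and 35.7 RPKM at P3 and 13.02 and 19.3 at P7 (log2 change = -1.12 ± 0.18, adjusted p = 0.000566). Adgrg6, an adhesion receptor, was at 2.63, 3.89 and 3.78 RPKM at P3 and 0.914 and 1.12 at P7 (log2 change = -1.12 ± 0.19, adjusted p = 0.0011). Cdh11, a cadherin of valve mesenchyme, was at 33.3, 45.2 and 42.3 RPKM at P3 and 17.3 and 22.7 at P7 (log2 change = -0.97 ± 0.20, adjusted p = 0.00363). Their summed level was 124, 152 and 143 RPKM at P3 and 72.1 and 97.5 at P7. Of 15 tested of 18 listed atrial markers 0 rose and 7 fell (0 and 4 when scaled; 0 and 3 without P7 replicate 1), and their sum was 558, 530.1 and 572 RPKM at P3 and 304 and 457 at P7. RV P7 replicate 2 was the higher P7 library for Myl7, Myl4, Nppa and the sum. Whether the share of atrial or valve tissue in the dissected ventricles moved with these genes was not tested. Of 13 tested of 13 listed epicardial markers 0 rose and 0 fell (0 and 0 when scaled); 4 had an unadjusted p under 0.05 in limma, with sums of 113, 88.2 and 124 RPKM at P3 and 82.04 and 85.8 at P7.

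Red cell transcripts rose in the second step. Of 12 tested of 18 listed red cell genes 7 rose and 0 fell (7 and 0 when scaled; 2 and 0 without P3 replicate 1 or 3 or P7 replicate 1; 3 and 0 without P7 replicate 2). In the first step, which shares the P3 libraries, 10 of the 12 had fallen, as had 21.5% of all entries. Hba-a1 was at 177, 256 and 206 RPKM at P3 and 494 and 576 at P7 (log2 change = 1.34 ± 0.20, adjusted p = 0.000285). Hbb-bs, an adult beta-globin with near-identical copies, was at 104, 171 and 153 RPKM at P3 and 319.9 and 215 at P7 (log2 change = 0.90 ± 0.27, adjusted p = 0.0298). Alas2 (0.73), the haem synthesis enzyme of red cell precursors, and the anion exchanger Slc4a1 (0.76) rose too, whereas Hbb-y and Hba-x, globins of the embryo, were not called. Their sums were 584, 825 and 703 RPKM at P3 and 1511 and 1558 at P7, and the part of retained blood in them was not tested.

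Among immune genes 2 calprotectin genes fell, and no macrophage gene was called on the deposited scale. Of 7 tested of 15 listed lymphoid and granulocyte genes 0 rose and 2 fell (0 and 2 when scaled; 0 and 0 without P7 replicate 1). The calprotectin subunit S100a8 was at 3.93, 7.87 and 7.51 RPKM at P3 and 0.988 and 1.91 at P7. Its partner S100a9 was at 10.2, 12.3 and 9.97 RPKM at P3 and 3.91 and 5.54 at P7 (log2 change = -1.06 ± 0.27, adjusted p = 0.0138). Neither was called without RV P7 replicate 1. Among mast cell proteases, chosen after their values were seen, Cma1 was at 23.1, 13.03 and 17.9 RPKM at P3 and 4.99 and 7.79 at P7 (log2 change = -1.35 ± 0.21, adjusted p = 0.000476). Cpa3 was at 14.7, 10.4 and 10.2 RPKM at P3 and 4.23 and 4.56 at P7 (log2 change = -1.23 ± 0.21, adjusted p = 0.0012) and Tpsb2 at 16.7, 11.4 and 11.8 RPKM at P3 and 4.296 and 4.33 at P7 (log2 change = -1.41 ± 0.19, adjusted p = 9.95e-05). In all 3 the P7 libraries were the lower ones. Of 11 tested of 16 listed macrophage genes 0 rose and 0 fell (3 and 0 when scaled; 0 and 1 without P3 replicate 1; 1 and 0 without P3 replicate 2). Of 15 tested of 21 listed interferon-induced genes 0 rose and 0 fell (0 and 0 when scaled). At an unadjusted p under 0.05 in limma these lists held 4 and 0 genes. In the complement and coagulation list, of 11 tested of 17 listed genes 0 rose and 2 fell (0 and 2 when scaled; 0 and 1 without P7 replicate 1), C3 among them. In antigen presentation, of 11 tested of 15 listed genes 0 rose and 1 fell (2 and 0 when scaled; 0 and 0 without P3 replicate 1, 2 or 3 or P7 replicate 2; 1 and 0 without P7 replicate 1), and the fall was H2-T23 (-0.47).

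The remaining lists changed in single members. Of 23 tested of 28 listed thyroid, glucocorticoid and clock genes 1 rose and 1 fell (1 and 0 when scaled; 1 and 0 without P3 replicate 2 or 3 or P7 replicate 1 or 2). Hr, a corepressor induced by thyroid hormone, was at 0.587, 0.629 and 0.622 RPKM at P3 and 2.06 and 1.804 at P7 (log2 change = 0.86 ± 0.11, adjusted p = 8.57e-05), and Fkbp5, a glucocorticoid target, fell (-0.40; not called after upper-quartile scaling). Of 23 tested of 24 listed antioxidant genes 1 rose and 2 fell (4 and 0 when scaled; 1 and 0 without P7 replicate 1). Sod3, extracellular superoxide dismutase, was at 5.798, 5.45 and 5.17 RPKM at P3 and 12.2 and 12.1 at P7 (log2 change = 1.02 ± 0.17, adjusted p = 0.000694). The metallothioneins Mt1 (-0.70) and Mt2 (-0.86) fell on the deposited scale alone. Of 14 tested of 18 listed hypoxia genes 1 rose and 2 fell (2 and 1 when scaled; 1 and 1 without P3 replicate 2 or 3; 0 and 1 without P7 replicate 1), with Slc2a1 and Pdk1 as the falls. Epas1, the endothelial hypoxia-inducible factor, was at 33.05, 36.5 and 29.5 RPKM at P3 and 50.7 and 48.2 at P7 (log2 change = 0.57 ± 0.13, adjusted p = 0.0064). Of 13 tested of 19 listed lipid droplet genes 1 rose and 2 fell (3 and 0 when scaled; 1 and 1 without P3 replicate 1; 1 and 0 without P3 replicate 2 or 3 or P7 replicate 1; 0 and 1 without P7 replicate 2): Plin5, the perilipin of oxidative muscle, rose (0.54), and Plin3 (-0.36) and Dgat1 (-0.33) fell. Of 14 tested of 20 listed immediate early genes 1 rose and 1 fell (3 and 0 when scaled; 0 and 0 without P3 replicate 1 or 3 or P7 replicate 1 or 2), Klf4 (0.40) and Atf3 (-0.71). Of 9 tested of 11 listed histone genes 1 rose and 2 fell (1 and 1 when scaled; 1 and 1 without P3 replicate 1 or 3 or P7 replicate 2; 1 and 0 without P7 replicate 1): H2bc4, a polyadenylated H2B, rose (0.85), and H2az1 (-0.70) and H2aw (-0.65) fell. Of 6 tested of 15 listed Schwann cell, nerve and conduction genes 0 rose and 2 fell (0 and 2 when scaled; 0 and 1 without P3 replicate 1 or 3 or P7 replicate 2; 0 and 0 without P7 replicate 1), Gap43 (-0.94) and Hcn4. Of 3 tested of 14 listed skeletal muscle genes 0 rose and 1 fell (0 and 1 when scaled; 0 and 0 without P7 replicate 1), the fall being fast troponin I, Tnni2 (-1.06). Of 3 tested of 17 listed markers of lung, liver, thymus and brown fat 0 rose and 1 fell (0 and 0 when scaled; 0 and 0 without P3 replicate 2 or 3 or P7 replicate 1 or 2), the fall being Ttr (-0.53). Ppp1r1b, a phosphatase inhibitor gene near Tcap, was at 8.96, 9.49 and 8.86 RPKM at P3 and 3.54 and 2.63 at P7 (log2 change = -1.32 ± 0.16, adjusted p = 5.03e-05).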

How the data were processed

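Total RNA of right and left ventricles was sequenced in 17 libraries (labels). Per the submitters' processing notes reads were aligned with STAR 2.4.0j to mm10. For the counting tool and annotation: not given in the sources used here. The deposited values were read as RPKM: no header names the unit, and with recovered library sizes all 20624 of 20624 entries (100.0%) gave whole reads within 0.02. Symbols came from RefSeq GRCm38.p6 (20379 entries) and GENCODE (76), and 169 entries stayed unnamed. RPKM does not adjust for a few abundant genes, so each result was repeated after upper-quartile scaling (library factors 0.830 to 1.16).

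log2(RPKM + 1) of 10668 entries (1 RPKM or more in at least 2 libraries) was fitted with limma 3.58.1 (R 4.3.3) over all 17 libraries, 1 mean per group, with a trended empirical Bayes variance; tests are two-sided with Benjamini-Hochberg adjustment at 0.05. The scripts were tested on simulated data. The median SE was 0.13, which limits what 2 against 3 libraries can show. No 2 libraries of a group were duplicates: over 16 pairs the variance was at least 5.09 times the sampling noise. LV and RV libraries of 1 age and number correlated in their residuals (r = 0.269 to 0.587, 8 of 8 pairs), so the chamber difference is also given paired; 5 residual degrees of freedom remained there, against 11.

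Named genes are the 12 highest and 12 lowest calls that reached a mean of 5 RPKM in 1 age and did not overlap, up to 4 calls per list with the largest change, a fixed set of 21 genes, and the 6 highest and 6 lowest chamber differences. Other list members were named after their values were seen. The libraries, lists and genes were chosen with earlier results of these data known. Python 3.11.15 (pandas 2.3.3, numpy 2.4.6) made the tables and matplotlib 3.10.9 the plots. Alternatives tried were the scaling, pseudocount, filter, sample set, replicate block, voom on recovered reads and the omission of each library. Some genes are not reported here.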

Additional observations from a re-analysis of the deposited data

Results flagged for a closer look

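In the paired test 27 entries changed differently in the RV and the LV between P3 and P7. The values are the RV change minus the LV change in log2(RPKM + 1). In 5 entries the RV change was the lower one: Stfa1 (-0.89; a gene with near-identical copies), Tsacc (-0.80), Rarres2 (-0.79), Tgfbi (-0.79) and Hpgd (-0.74), the enzyme that inactivates prostaglandins. For Rarres2, which encodes the chemoattractant chemerin, the RV stood at 59.1, 60.1 and 50.2 RPKM at P3 and 41.9 and 46.4 at P7, and the LV at 26.9, 30.8 and 27.7 at P3 and 40.5, 37.7 and 43.8 at P7. The chambers were thus apart at P3 and met at P7.

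In 22 entries the RV change was the higher one. Of these, 6 belong to the mitosis list: Aurka (0.65), Cdca8 (0.67), Prc1 (0.68), Ube2c (0.76), Ccnb1 (0.81) and Hmmr (0.89). Rrm2 (0.70), a subunit of ribonucleotide reductase, belongs to the replication list. The others were Slc16a1 (0.60), Tuba1c (0.61), Ankrd1 (0.65), Ppp1r1b (0.66), Nuf2 (0.68), Dlgap5 (0.70), Arhgef39 (0.70), Knstrn (0.73), the Ndrg4 entry NM_001195006 (0.73), Myl9 (0.76), Ckap2l (0.80), Cdca3 (0.82), H4c1 (0.90; a gene with near-identical copies), Aqp4 (0.92) and Casq1 (0.9997).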

How the results depend on the processing

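Without the filter on low values 1031 entries fell. After upper-quartile scaling 1190 were called, 637 higher and 553 lower; on that scale 426 were called without RV P7 replicate 1 (171 lower) and 554 without replicate 2 (264 lower). Without both replicate 1 RV libraries, an alternative chosen after seeing the data, 211 were called (87 higher, 124 lower), or 305 after scaling (116 lower). Leaving out 1 library gave 300 to 1585 calls, 109 to 204 higher and 191 to 1381 lower, the fewest without RV P7 replicate 1; fewer libraries were tested in each. Members of the 48 lists were called 176 times, and 68 to 159 times without 1 library, 80 and 90 after scaling without RV P7 replicate 1 or 2, and 50, or 59 after scaling, without both replicate 1 libraries. Voom on recovered reads called 1729. Of 174 named entries 141 were called, and 37 of these lost their call under scaling. More of them lost it without RV P7 replicate 1. No call among the named entries reversed its direction in the 16 settings.

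Replicate numbers did not pair RV P3 with RV P7 (r = -0.0076 and -0.043), and the replicate block by number called 2311 entries. For the chamber difference no entry was called; 2 were without the filter and 1 without RV P7 replicate 2. In the replicate block by age and number 27 were called, 27 with a pseudocount of 0.1 and 53 after scaling. Without 1 library of a pair it called 0 to 12, and 27 without the unpaired LV P7 replicate 3. The planned count models were not run because the deposited values are RPKM.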
